A study of Homo sapiens with 21 samples.

Results

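The sites described here are the open chromatin sites of the cytosolic ribosomal protein (RP) genes in the human neuroblastoma line SK-N-BE(2), an established cell line. Members were found by gene name in the annotation of the consensus sites, as names made of RPL or RPS, a number and at most an A, L or X, together with RPLP0, RPLP1, RPLP2 and RPSA, and pseudogenes were dropped. This gave 448 of 367900 sites, named for 69 genes. Of these, 52 sites of 51 genes were annotated as promoters, 18 lay within 3000 bases of a transcription start site (TSS) without that annotation (TSS-flanking sites), and 378 lay farther away (distal sites). All promoter and flanking members and 364 distal members passed the filter on low counts, and the other 14 distal members were not tested. Names were given by distance to the closest gene, and a site far from that gene may act on another.

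Accessibility was profiled by ATAC-seq, in which the transposase Tn5 cuts and tags open DNA, 72 h after lentiviral transduction of short hairpin RNAs (shRNAs). The 21 libraries formed 7 groups of 3. Control was the non-silencing control. The others were ARID1A silencing with shARID1A.2 or shARID1A.4, ARID1B silencing with shARID1B.2 or shARID1B.3, and silencing of both genes with the pairs shARID1A/B.2.3 or shARID1A/B.4.2. ARID1A and ARID1B are alternative structural subunits of the BAF chromatin remodeller, and the question asked of each comparison was how accessibility changes when this complex is disturbed. All groups were the same cell line in the same medium, and all were transduced with lentivirus. Nothing in the labels says that the replicates were separate cultures, so p-values measure the spread between these libraries. Bulk profiles cannot tell a change in every cell from a change in the share of cells in which a site is open.

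RP genes encode the protein part of the cytosolic ribosome, with RPL proteins in the large (60S) and RPS proteins in the small (40S) subunit. They are transcribed at high rates in growing cells from constitutively open promoters that usually lack a strong TATA box, and their transcription starts within a short run of pyrimidines. The same run at the 5′ end of the mRNA is the terminal oligopyrimidine (TOP) motif, through which mTOR signalling controls translation. MYC proteins raise ribosome production, and neuroblastoma cells with MYCN amplification, among them SK-N-BE(2), are known for high ribosome synthesis.

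The sequences around the start of the 3 RP promoters with the largest rise (RPL13A, RPL13 and RPL3) and the 3 with the smallest change among those with a start in the sequence table (RPL6, RPL22 and RPL35A) are given first, since the comparison below ranges between them. They run 5′ to 3′ on the gene's strand from 250 bases before to 30 bases from the most upstream RefSeq start within the site, on GRCh38.p14. Capitals mark matches to the searched letters for the ETS, YY1, SP and MYC E-box motifs on either strand, and the pyrimidine run at the start shown.
RPL13A, chr19:49487358-49487637, plus strand: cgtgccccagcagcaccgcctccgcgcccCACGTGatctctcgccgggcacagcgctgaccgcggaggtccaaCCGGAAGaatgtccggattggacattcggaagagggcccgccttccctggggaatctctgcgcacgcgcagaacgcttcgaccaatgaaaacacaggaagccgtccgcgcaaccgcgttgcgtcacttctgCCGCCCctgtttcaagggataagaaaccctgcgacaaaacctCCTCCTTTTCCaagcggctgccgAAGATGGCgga
RPL13, chr16:89560407-89560686, plus strand: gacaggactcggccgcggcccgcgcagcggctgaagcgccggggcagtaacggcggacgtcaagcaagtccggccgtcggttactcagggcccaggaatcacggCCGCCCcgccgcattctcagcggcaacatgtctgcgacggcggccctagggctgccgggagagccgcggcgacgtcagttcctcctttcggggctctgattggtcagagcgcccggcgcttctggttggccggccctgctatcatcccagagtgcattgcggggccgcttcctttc
RPL3, chr22:39319594-39319873, minus strand: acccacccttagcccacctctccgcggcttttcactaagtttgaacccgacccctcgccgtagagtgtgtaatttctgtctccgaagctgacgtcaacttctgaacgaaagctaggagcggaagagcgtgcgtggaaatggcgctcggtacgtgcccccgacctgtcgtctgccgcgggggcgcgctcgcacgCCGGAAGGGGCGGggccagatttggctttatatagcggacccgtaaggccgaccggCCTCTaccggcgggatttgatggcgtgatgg
RPL6, chr12:112409256-112409535, minus strand: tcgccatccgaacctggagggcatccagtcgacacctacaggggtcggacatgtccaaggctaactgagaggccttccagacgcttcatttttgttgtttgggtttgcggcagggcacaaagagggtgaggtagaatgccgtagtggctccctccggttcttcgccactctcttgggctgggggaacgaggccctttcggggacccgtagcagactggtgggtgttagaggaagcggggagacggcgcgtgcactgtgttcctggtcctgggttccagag
RPL22, chr1:6199566-6199845, minus strand: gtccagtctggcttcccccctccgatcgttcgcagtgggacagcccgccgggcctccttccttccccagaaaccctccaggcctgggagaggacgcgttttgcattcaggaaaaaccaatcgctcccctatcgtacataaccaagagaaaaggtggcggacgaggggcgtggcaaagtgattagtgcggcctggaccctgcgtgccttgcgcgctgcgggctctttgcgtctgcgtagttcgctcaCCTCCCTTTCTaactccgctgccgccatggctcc
RPL35A, chr3:197949940-197950219, plus strand: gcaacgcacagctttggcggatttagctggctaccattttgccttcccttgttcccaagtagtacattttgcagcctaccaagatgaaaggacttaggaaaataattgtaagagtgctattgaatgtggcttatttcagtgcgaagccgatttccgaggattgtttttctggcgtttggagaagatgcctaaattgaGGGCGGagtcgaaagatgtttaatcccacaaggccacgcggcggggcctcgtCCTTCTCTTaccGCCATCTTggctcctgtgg

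The starts of 64 of the 81 RefSeq genes that fit the naming rule were in the promoter table, which holds 300 bases around each start. A C followed by at least 4 pyrimidines, from 5 bases before to 10 bases after the start on the sense strand, was present in 53 of these 64 genes (82.8%), against 28% of 15843 protein-coding genes. These counts take any listed start of a gene. RPL13A, RPL22, RPL3 and RPL35A held such a run at the start shown, so promoters with it stood in both sets of 3. RPL13 lacked it there and held it at a listed start farther downstream (89560682), where the sequence above breaks off, and RPL6 lacked it. The letters CTTTCC at that place were found in 26.6% of RP genes and 1.22% of coding genes. The ETS letters CCGGAAG, on either strand of the 300 bases, were found in 35.9% of RP and 16.5% of coding genes. For the YY1 letters AAGATGGC these shares were 9.38% and 4.66%. The SP letters GGGCGG (59.4% and 64.3%), the E-box CACGTG (6.25% and 10.9%), the NRF1 letters GCGCATGC (4.69% and 4.89%) and TATAAA in the 50 bases before the start (4.69% and 4.49%) were found in RP genes about as often as in coding genes or less often. A CTTTCC start also counts as a pyrimidine run, so these patterns overlap. Among the member promoters whose start was in the table, the 33 with the pyrimidine run had a median log2 change of 0.33 after combined silencing and the 7 without it 0.20. A match is only a match of letters, and these medians are a description.

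The member promoter sites were 845 to 2211 bases long (median 1456) and had a median GC content of 56.4%, against 59.1% for all 12310 tested promoter sites. In Control they held a median of 15.3 CPM (counts per 1000000 reads after scaling), or 11.4 CPM per kb of site, against 6.46 CPM per kb over all promoters. RPS6, the S6 protein phosphorylated by S6 kinase, was the most accessible per length with 35.5 CPM per kb in Control, ahead of RPS3A with 30.7 and RPS12 with 29.5. RPL32 with 3.82 and RPS16 with 4.31 CPM per kb were the least accessible. Of the 52 sites, 51 lay within 781 bases of the annotated RP start. Of these, 6 were annotated to the promoter of a neighbour that starts close by, namely RPL35A (IQCG), RPS20 (SNORD54), RPS27A (CLHC1), RPL34 (RPL34-AS1), RPS29 (RN7SL1) and RPL18 (SPHK2). The RefSeq start of RPS29 lies in a separate site, which is described with the starts in sites of other names. At the other sites the accessibility of the RP start and of its neighbour cannot be told apart.

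Library totals over all sites ran from 16140029 to 44472230 reads, and Control libraries held 21292613 to 25188802. Of the neuroblastoma markers, PHOX2A, HAND2, GATA3, TH and DBH had a site within 1000 bases of the TSS, and ISL1 and MYCN had only more distant sites. Blood (PTPRC, CD3E) and liver (ALB, APOA1) markers, KRT5 and PECAM1 had no site within 1000 bases, whereas EPCAM (5.74 CPM per kb in Control) and CDH5 (3.24) had one. Accessibility does not measure the silencing of ARID1A or ARID1B, so the labels could not be checked through the targeted genes. Single libraries stood apart at the members. With shARID1A/B.2.3 replicate 2, the median log2 ratio of the 52 promoters to the Control mean was 0.02, whereas it was 0.25 in both other libraries of that pair and 0.38 to 0.44 with shARID1A/B.4.2. The corresponding medians over all promoters were 0.04, then 0.20 and 0.16, and 0.29 to 0.32. Replicate 2 of shARID1A.2 was also low, with a member median of 0.05 against 0.31 and 0.19 in the others of its group, as was replicate 3 of shARID1B.3, with 0.11 against 0.33 and 0.32. Control replicate 2 differed more from replicates 1 and 3 (chi-square per degree of freedom 1.75 and 1.95) than these from each other (1.09).

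Combined silencing of ARID1A and ARID1B was followed by a small rise of accessibility at most RP promoters and by a fall at none. Averaged over both shARID1A/B pairs, 30 of 52 RP promoter sites (57.7%) were higher than in Control in the edgeR test at an adjusted p under 0.01, where 33.4% of all tested promoter sites were higher. The edgeR test called 0 members lower, also at an unadjusted p under 0.05, while 4.24% of all promoter sites were lower. DESeq2 called 24 members higher and 0 lower, where 30.6% and 3.5% of all promoter sites were. The fitted log2 change was above 0 at all 52 sites and ranged from 0.01 to 0.62, with a median of 0.31 against 0.23 over all promoters. The count was 19 when Control replicate 2 was left out and 39 when replicate 2 of shARID1A/B.2.3 was. The size of these changes rests on the scaling. When libraries were scaled on promoter sites, which lowered the median of all tested sites from 0.03 to -0.20, 7 members were higher and 1 lower, where 8.09% of all promoters were higher and 10.7% lower, and the median of the members was 0.08 against -0.0037 over all promoters. The members' median exceeded that of all promoters by 0.08 to 0.12 under each of the 10 ways of fitting compared. A change of library scaling shifts both medians alike, so it could hardly move this difference. Promoters within the members' range of Control CPM per kb had a median of 0.28. Within the members' interquartile range of that level it was 0.29, and the members there had 0.30.

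**Figure D1:**
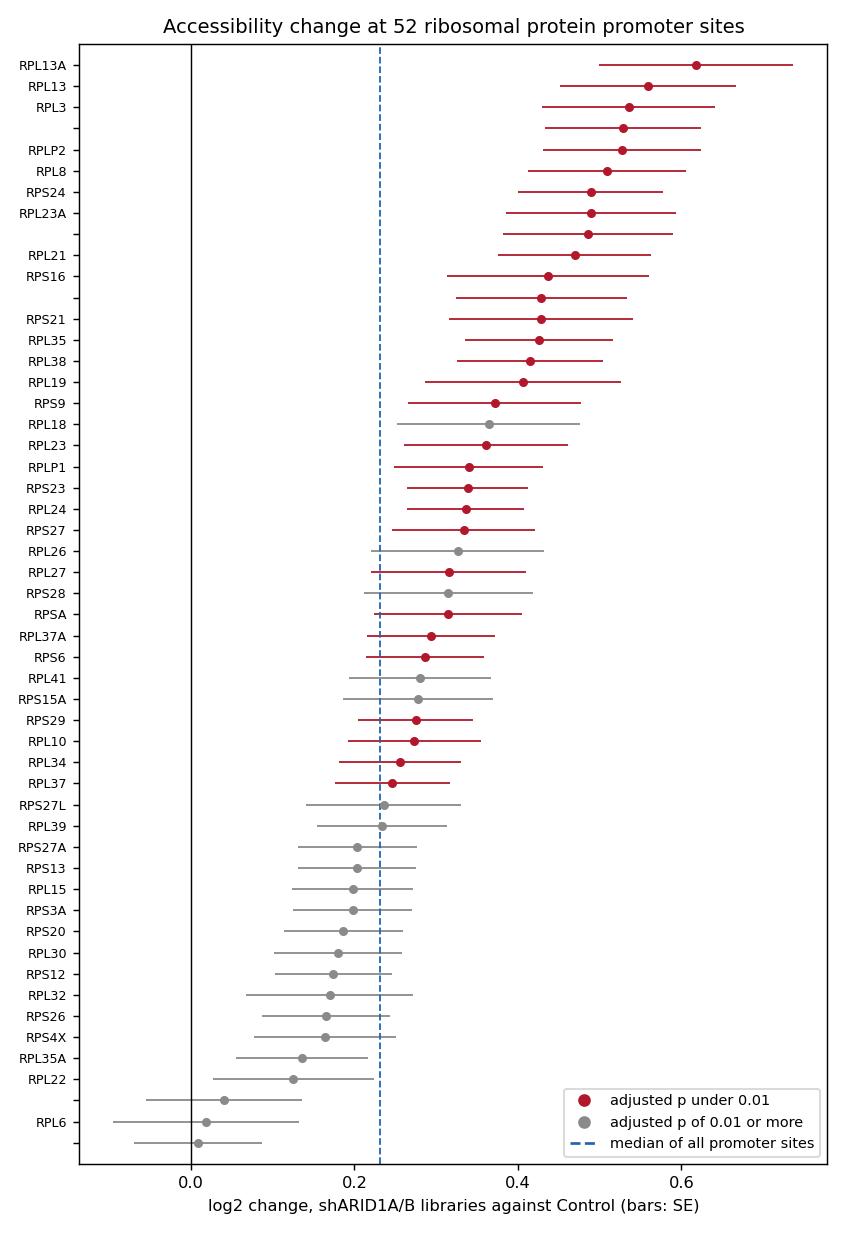
Log2 change in accessibility (horizontal axis, bars are SE) of each of the 52 RP promoter sites, shARID1A/B libraries (n = 6) against Control (n = 3), with the dashed line at the median of all promoter sites, 0.23. All points lie right of 0, from 0.01 to 0.62 for RPL13A, and the 30 red points had an adjusted p under 0.01. Some points carry no gene name.

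RPL13A, a large subunit protein that is also part of the interferon-induced GAIT complex, rose most. Its promoter site (chromosome 19, 49487059 to 49488024) measured 5.82, 3.99 and 6.53 CPM in the Control libraries, 7.98, 6.44 and 8.44 with shARID1A/B.2.3, and 9.41, 7.73 and 10.7 with shARID1A/B.4.2. Thus 5 of 6 combination libraries lay above all Control libraries, and shARID1A/B.2.3 replicate 2 lay within their range. The log2 change was 0.62 (SE 0.12, edgeR adjusted p = 2.02e-05). RPL13, another 60S protein (chromosome 16, 89559905 to 89561360), went from 10.1, 8.01 and 12.4 CPM to 14.9, 11.8 and 16 with shARID1A/B.2.3 and 17, 14.2 and 16.6 with shARID1A/B.4.2. Its Control libraries spread widely, and only shARID1A/B.2.3 replicate 2 overlapped them (log2 0.56, SE 0.11, adjusted p = 2.08e-05). RPL3, which lies near the peptidyl transferase centre (chromosome 22, 39319019 to 39320461), had 12.8, 9.86 and 13.8 CPM in Control, 19.1, 14.1 and 18.8 with shARID1A/B.2.3 and 17.9, 17.9 and 18.0 with shARID1A/B.4.2. All 6 combination libraries exceeded all Control libraries, with a log2 change of 0.54 (SE 0.11, adjusted p = 3.17e-05). Such a lack of overlap was found at 14 of 52 members (26.9%) and at 25.5% of all promoters.

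RPLP2 and RPL8, also genes of the large subunit, were among the 6 promoters with the largest rises. RPLP2 (chromosome 11, 808847 to 810533), with 17.1, 13.1 and 19.4 CPM in Control, reached 23.7, 19.1 and 24 with shARID1A/B.2.3 and 26.2, 25.1 and 25.8 with shARID1A/B.4.2 (log2 0.53, SE 0.10, adjusted p = 7.84e-06). RPL8 (chromosome 8, 144791871 to 144793569), with 13.7, 10.6 and 13.6 CPM in Control, reached 19, 14.7 and 17.8 and then 19.1, 17.3 and 20.2 with the pairs in the same order, so that every combination library was above every Control library (log2 0.51, SE 0.10, adjusted p = 1.49e-05). With GC-content offsets the adjusted p of RPL8 was 0.018 and the call was lost.

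At the other end, RPL6, another 60S protein gene, hardly differed from Control. Its promoter site (chromosome 12, 112408986 to 112409916) measured 10.6, 8.55 and 11.3 CPM in Control and 7.04 to 12.4 over the combination libraries, with a log2 change of 0.02 (SE 0.11, adjusted p = 0.940). Its sign depends on the scaling, with a value of -0.22 when libraries were scaled on promoter sites, and on single libraries. The value was -0.068 and -0.042 without Control replicate 2 and shARID1A/B.2.3 replicate 3. RPL22, whose product binds small viral and telomerase RNAs besides rRNA, had a log2 change of 0.13 (SE 0.10, adjusted p = 0.434), RPL35A 0.14 (SE 0.08, 0.265), RPS4X, the X-linked copy of a gene pair with a Y-linked copy, 0.16 (SE 0.09, 0.197), and RPS26, a 40S protein close to the mRNA exit channel, 0.17 (SE 0.08, 0.137). These 4 did not pass the edgeR test, and their values were below 0 with promoter scaling (-0.11, -0.10, -0.07 and -0.07).

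The change at RP promoters ran against their level in Control. Across the 52 members the Spearman correlation of the log2 change with Control CPM per kb was -0.39, whereas it was 0.24 across all 12310 promoters. Level and change both use the same Control libraries, so spread in Control alone can push such a correlation below 0. All promoters also reach lower levels. By decile of level, their median change was -0.02 around 2.11 CPM per kb, 0.29 around 7.70 and 0.26 around 29.1. The 26 less accessible members (under the members' median of 11.4 CPM per kb) had a median log2 change of 0.37 with 17 called higher, and the 26 more accessible ones 0.27 with 13 called. All promoters in the same bands had medians of 0.28 and 0.28, with 40.8% and 55.2% called higher. Among the most accessible members, RPS6 held 44.3, 49 and 41.7 CPM in Control and 50.5 to 60.6 over the 6 combination libraries, all above Control (log2 0.29, SE 0.07, adjusted p = 0.0014). RPS3A, with 38.6 ± 1.4 CPM in Control (SD, n = 3 here and below) and a log2 change of 0.20 (adjusted p = 0.043), and RPS12, with 57.6 ± 4.9 CPM and 0.17 (0.075), did not pass the test. Among the least accessible, RPS16 (4.77 ± 0.67 CPM in Control) had a log2 change of 0.44 (SE 0.12, adjusted p = 0.0052) and was higher. RPL32 (7.24 ± 0.33 CPM) had 0.17 (SE 0.10, adjusted p = 0.276). The call of RPS6 was lost without Control replicate 1 or 3, with GC-content offsets (log2 0.22, adjusted p = 0.0104) and with abundance-trended offsets (log2 0.02, adjusted p = 0.859). That of RPS16 was lost with DESeq2 (adjusted p = 0.0149) and without Control replicate 2 or 3 or shARID1A/B.4.2 replicate 3. Scaling on promoter sites ended both calls, and RPS3A, RPS12 and RPL32 were then below 0 (-0.04, -0.07 and -0.07).

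GC content moved with the change too, with a Spearman correlation of 0.41 across members and 0.35 across all promoters. The members share libraries, the same Control and a narrow range of GC content, so these correlations over 52 sites are descriptions. Over the whole range of Control CPM per kb that the members spanned, 47.9% of 7517 promoters were higher, and within the members' interquartile range 51.3% of 3375, where 14 of 26 members were. In the more accessible band above, the 13 of 26 members called higher were a smaller share than the 55.2% of all promoters. On chromosome 19, where 50.2% of all promoters were higher, 6 of 8 members were, and on chromosome 17, where 42.0% were, 5 of 6 members were. On the remaining chromosomes 19 of 38 members were higher, where 31.8% of all promoters were. With GC-content offsets, 26 members were higher, where 20.1% of all promoters were, and the median was 0.24 against 0.12 over all promoters.

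**Figure D2:**
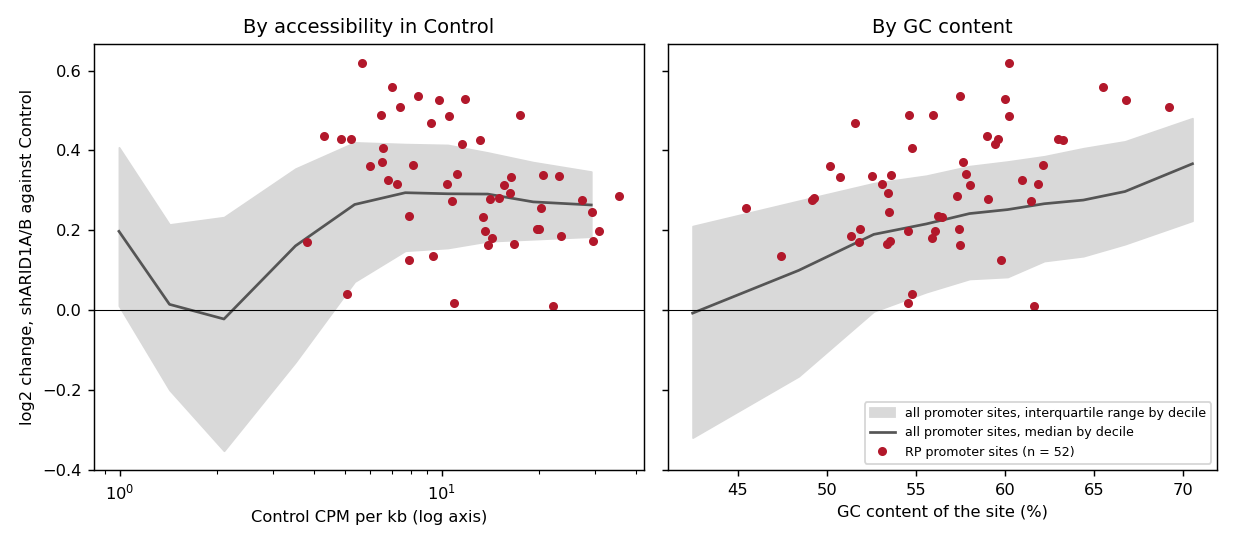
Log2 change after combined silencing (vertical axis) against Control CPM per kb (left, log axis) and GC content in percent (right) for the 52 RP promoter sites (points), with the median and interquartile range of all 12310 promoter sites by decile (line and band). Members with lower Control accessibility reached the largest changes (Spearman -0.39), and those with higher GC content changed more (0.41).

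Summed over the 52 promoters, the RP genes took more of every silenced library and nearly the same part of its promoter reads. In Control the sum was 1026.5 ± 10.3 reads per 1000000 counted reads (lowest 1015.9, highest 1036.4, SD, n = 3). The shARID1A/B.2.3 libraries reached 1209.4 ± 37.5 and those of shARID1A/B.4.2 1305.9 ± 14.2, and in the single-shRNA groups it was between 1119.4 ± 19.7 (shARID1B.2) and 1183.3 ± 43.0 (shARID1A.2). Each of the 18 silenced libraries lay above all Control libraries. Promoter reads as a whole rose at the same time, from 20.3% ± 0.31 of all counted reads in Control to 23.7% ± 0.33 for the shARID1A/B.2.3 pair and 24.97% ± 0.12 for the shARID1A/B.4.2 pair. As a share of promoter reads, the RP sites took 0.505% ± 0.0053 in Control, 0.511% ± 0.011 with shARID1A/B.2.3 and 0.523% ± 0.0037 with shARID1A/B.4.2. In single libraries this share ranged from 0.493% (shARID1A.4 replicate 1, 95% Wilson interval 0.488 to 0.499) to 0.530% (shARID1B.2 replicate 2, 0.523 to 0.538), where intervals cover counting error only. The shares with shARID1A/B.2.3 and shARID1A.4 overlapped that of Control. Those with shARID1A/B.4.2, shARID1A.2, shARID1B.2 and shARID1B.3 did not, and the highest mean was that of shARID1B.2 (0.526% ± 0.0074).

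**Figure D3:**
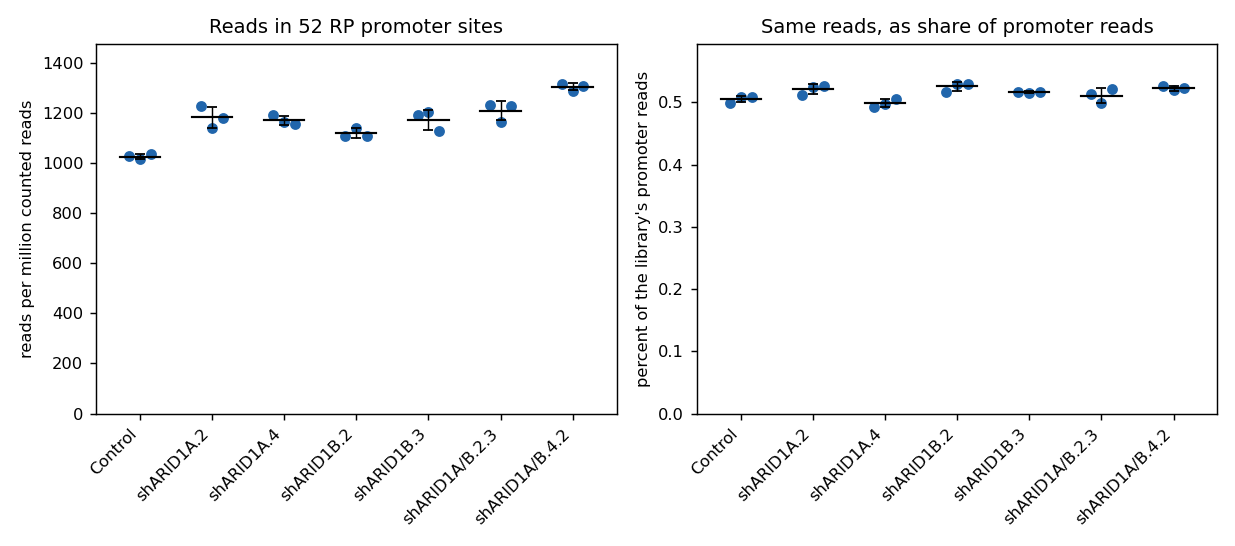
Reads in the 52 RP promoter sites by group, as reads per 1000000 counted reads (left) and as percent of the library's promoter reads (right); points are libraries, lines and bars are mean and SD (n = 3). The left panel rises from 1026.5 in Control to 1305.9 with shARID1A/B.4.2, while the right panel stays between 0.493% and 0.530%.

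Divided by subunit, 19 of 29 large subunit promoters and 11 of 23 small subunit promoters were higher, with medians of 0.34 and 0.28, and no member of either was lower. The acidic P proteins, which form the stalk that recruits elongation factors, were both higher at their promoters, RPLP2 as above and RPLP1 from 18 ± 2.1 CPM in Control to 22.1 ± 3.2 and 23.4 ± 1.6 (log2 0.34, SE 0.09, adjusted p = 0.0031). The call of RPLP1 was lost with DESeq2, with promoter scaling and without Control replicate 2, Control replicate 3 or shARID1A/B.4.2 replicate 3. RPSA, the 40S protein also known as the laminin receptor, measured 14.9, 15.9 and 13.8 CPM in Control and 17.2 to 20.1 in the combination libraries, which were all higher (log2 0.31, SE 0.09, adjusted p = 0.0060). Its call was lost with GC-content offsets, with promoter scaling and without Control replicate 1 or 3 or shARID1A/B.4.2 replicate 3. RPS27A, which encodes ubiquitin fused to an RP, had a log2 change of 0.20 (adjusted p = 0.034) and did not pass the test. The promoter of RPS24, one of the RP genes mutated in Diamond-Blackfan anaemia, measured 19.3, 14.2 and 16.8 CPM in Control and 21.4 to 25.6 in the combination libraries without overlap (log2 0.49, SE 0.09, adjusted p = 6.49e-06).

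RPL5 and RPL11 form the 5S ribonucleoprotein that binds MDM2 when ribosome assembly fails. Their start sites were TSS-flanking, and with log2 changes of 0.21 (SE 0.08, adjusted p = 0.068) and 0.24 (SE 0.12, adjusted p = 0.152) neither passed the test. The same held for RPS19, the gene most often mutated in Diamond-Blackfan anaemia (0.29, SE 0.10, adjusted p = 0.033), and for RPL10A (0.24, SE 0.10, 0.083). Of the paralogues with restricted expression, the start site of RPL39L was among the most open of all members (38.0 CPM per kb in Control) with a log2 change of 0.20 (adjusted p = 0.037), that of RPL10L was weak (1.54 CPM per kb) with -0.08 (0.838), and the promoter of RPS27L, a p53-responsive copy of RPS27, had 0.24 (0.069). None of the 3 passed, and the sign of RPL10L turned without shARID1A/B.4.2 replicate 1 (0.0072) or 2 (0.011). RPL3L had no site of its own name. Among the 18 flanking members 4 were higher, where 15.5% of 14563 flanking sites were, and edgeR called 0 lower (0 also at an unadjusted p under 0.05, and 0 by DESeq2). These were RPL31 (log2 0.49, SE 0.08, adjusted p = 3.49e-07), RPL36 (0.42), RPS15, which reaches the decoding site (0.36) and RPL27A (0.35), each within 779 bases of the start. RPL31, with 26.6, 23.6 and 27.3 CPM in Control, held 30.02 to 39.8 CPM in the combination libraries, all above Control.

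In 12 cases the RefSeq start of an RP gene lay in a site named for another gene, so that these starts are not among the members. They were looked up after the data had been seen. Of these 12 sites, 4 were higher after combined silencing, about the 33.4% of all promoters, and all 12 log2 changes were above 0 (median 0.30, 0.08 to 0.40). RPLP0, the scaffold of the P stalk, lay in a site named for PXN-AS1 and changed by 0.36 (SE 0.09, adjusted p = 0.00078). RPS25, in a site named for MIR3656, changed by 0.40 (SE 0.09, adjusted p = 0.00022), RPL9, which shares its site with LIAS, by 0.31 (adjusted p = 0.0012), and RPS3, in the site of SNORD15A, by 0.31 (adjusted p = 0.0053). RPL7A (site of MED22, 0.33, adjusted p = 0.014) and RPL36A (0.11, adjusted p = 0.428) did not pass. The RefSeq start of RPS29 lay in the site of LRR1 and had a log2 change of 0.09 (adjusted p = 0.446), whereas the member promoter site named RPS29, at RN7SL1, was higher (0.27, SE 0.07, adjusted p = 0.0017).

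The shARID1A/B pairs were next set against Control one at a time. With shARID1A/B.4.2, 38 of 52 RP promoters were higher, where 40.4% of all promoters were, and 0 were lower by edgeR, by DESeq2 and at an unadjusted p under 0.05. With shARID1A/B.2.3, 8 were higher, which at 15.4% of members was close to the 15.6% of all promoters, and 1 was lower, where 5.13% of all promoters were. The medians were 0.41 and 0.18, against 0.31 and 0.15 over all promoters. Both comparisons use the same Control libraries. The sites called higher with shARID1A/B.2.3 included RPL13, RPL13A, RPL24, RPL3, RPL8, RPLP2 and RPS24. Among them RPL3 had a log2 change of 0.51 with shARID1A/B.2.3 and 0.57 with shARID1A/B.4.2, and RPL13A 0.47 and 0.77. The count for shARID1A/B.2.3 depended on single libraries. It was 16 without shARID1A/B.2.3 replicate 2, 4 and 5 without its replicates 1 and 3, and 5 and 3 without Control replicates 1 and 2. No member was lower without shARID1A/B.2.3 replicate 2.

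The difference between the pairs was tested directly, in a comparison added after the data had been seen. At 7 of 52 RP promoters shARID1A/B.4.2 was higher than shARID1A/B.2.3, where 13.7% of all promoters were, and at 0 it was lower (0 also at an unadjusted p under 0.05), where 0.877% were. Among them were RPL23A, RPS16, RPL21, RPS27 and RPS13. RPL23A, a 60S protein at the nascent chain exit (chromosome 17, 28719215 to 28720657), held 10.3, 8.01 and 9.74 CPM in Control, 10.5, 8.29 and 12.8 with shARID1A/B.2.3 and 16.4, 16.9 and 16.4 with shARID1A/B.4.2. The pairs differed by 0.67 on the log2 scale (SE 0.11, adjusted p = 5.10e-06). Here the first pair overlapped Control, and the second exceeded both.

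Averaged single silencing gave fewer calls at RP promoters than the average of both pairs, but no fewer than shARID1A/B.2.3 alone (8 sites). Each average drew on 2 silenced groups and shARID1A/B.2.3 alone is 1 group, so the last counts differ in power. All calls with single silencing were rises. Averaged over its shRNAs, ARID1A silencing gave 14 higher members (26.9%, where 17.8% of all promoters were). ARID1B silencing gave 8 (15.4%, where 9.33% of all promoters were). The medians were 0.25 and 0.23 against 0.18 and 0.13 over all promoters. Promoters within the members' range of Control accessibility were not counted for these comparisons. The comparisons share the Control libraries. With ARID1A silencing the called sites included RPL13, RPL13A, RPL21, RPL24, RPL3, RPL35, RPL37A, RPL38, RPL8, RPLP2, RPS15A, RPS24 and RPS27. With ARID1B silencing they included RPL13, RPL13A, RPL26, RPS16 and RPS27. Without Control replicate 2 the counts were 1 and 0. The ARID1A count was also 5 without Control replicate 1 or shARID1A.2 replicate 1, and 9 without shARID1A.2 replicate 3 or shARID1A.4 replicate 2, and the ARID1B count was 15 without shARID1B.3 replicate 3. By shRNA, 5 members were higher with shARID1A.2 (9.62%, all promoters 6.91%) and 9 with shARID1A.4 (17.3%, all promoters 20.2%). With shARID1B.2 there were 2 (3.85%, all promoters 3.11%) and with shARID1B.3 15 (28.8%, all promoters 16.6%). In each case 0 members were lower by edgeR and DESeq2, with 1 at an unadjusted p under 0.05 for shARID1A.2 and 0 for the others.

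**Figure D4:**
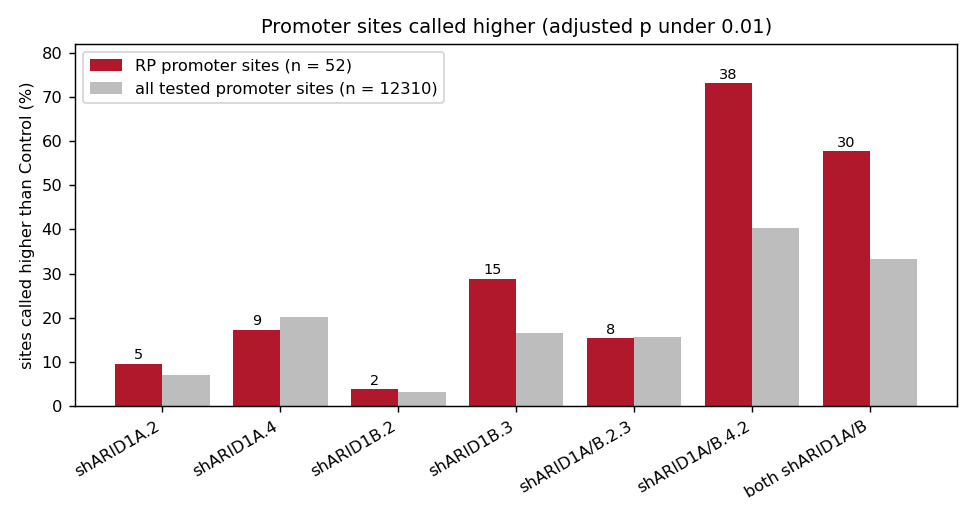
Percent of promoter sites called higher than Control at an edgeR adjusted p under 0.01 (bars from 0) for each silenced group and for the average of both shARID1A/B pairs, in RP promoters (red, n = 52, number called above the bar) and all promoters (grey, n = 12310). The red bar is above the grey one for shARID1A/B.4.2 (38 sites) and shARID1B.3 (15 sites), below it for shARID1A.4 (9 sites, 17.3% against 20.2%) and next to it for shARID1A/B.2.3 (8 sites).

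These counts by shRNA moved with single libraries as well. For shARID1A.2 the count lay between 1 and 13, the lowest without Control replicate 2 or shARID1A.2 replicate 1 (1 each), then 3 without Control replicate 1 or shARID1A.2 replicate 3, and the highest without Control replicate 3 (9) or shARID1A.2 replicate 2 (13). For shARID1A.4 it was 3 without Control replicate 2, 4 without shARID1A.4 replicate 1, and 6 without its replicate 2 or 3. For shARID1B.2 it was 0 without Control replicate 2 or shARID1B.2 replicate 2 and 1 without its replicate 3. For shARID1B.3 it was 4 without Control replicate 2, 7 without shARID1B.3 replicate 1 and 10 without its replicate 2.

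RPL24, a 60S protein at the subunit interface, was the only RP promoter at which ARID1A and ARID1B silencing differed, where 2.8% of all promoters were higher and 2.35% lower with ARID1A silencing. This comparison, too, was added after the data had been seen. Its site (chromosome 3, 101686092 to 101687514) measured 33.9, 31.8 and 32.8 CPM in Control, 44.2, 41.6 and 44.6 with shARID1A.2, 35.3, 36.6 and 33.8 with shARID1A.4, and 32.1 to 34.9 over the 6 ARID1B libraries. The high libraries were those of shARID1A.2, and the other single-shRNA libraries lay close to Control. The difference was 0.21 on the log2 scale (SE 0.06, adjusted p = 0.00972), and 0 members were lower (3 at an unadjusted p under 0.05).

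Against the mean of the 4 single-shRNA groups, combined silencing gave higher values at RPL37 (log2 difference 0.20, SE 0.05, adjusted p = 0.0020) and RPL24 (0.19, SE 0.05, adjusted p = 0.0040), and lower values at 0 members by edgeR, by DESeq2 and at an unadjusted p under 0.05. These 2 of 52 sites compare with 6.57% of all promoters that were higher. The count was 5 without shARID1A.2 replicate 1 or shARID1B.3 replicate 2, 4 without shARID1A/B.2.3 replicate 3 and 1 without shARID1A/B.4.2 replicate 3. RPL37, which encodes a zinc-binding 60S protein, held 51.2 ± 3.6 CPM in Control, 50.8 ± 3.5 to 55.5 ± 1.7 in the single-shRNA groups, 55.7 ± 5.1 with shARID1A/B.2.3 and 66.1 ± 1.3 with shARID1A/B.4.2. Only the last group stood clear of the others. RPL24 held 40.3 ± 0.75 CPM with shARID1A/B.2.3 and 42.6 ± 1.6 with shARID1A/B.4.2, and the shARID1A.2 libraries given above were about as high. The median difference of the members was 0.08, against 0.07 over all promoters.

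Away from promoters, falls outnumbered rises at RP-named sites with all libraries in the fit. Of 364 tested distal members, 8 were higher and 21 lower after combined silencing, where 1.77% of 329970 distal sites were higher and 10.6% lower. As a share of members this was 2.20% and 5.77%. Counted with the flanking members, the number higher was 12, and it was 6 without Control replicate 2, and 23, beside 22 lower, when replicate 2 of shARID1A/B.2.3 was left out. Abundance-trended offsets gave 21 higher and 21 lower, so that falls no longer outnumbered rises in either case, and scaling on promoter sites gave 3 higher and 48 lower. The median log2 change of the distal members was 0.05, against 0.02 over all distal sites. Names were unevenly spread, since 207 distal members lay over 50 kb from the TSS and 141 were named for RPS29 and 61 for RPL10L, 2 genes that border long intervals with few genes on chromosome 14. Of the tested RPS29 sites (137, up to 687 kb from the annotated start), 9 were lower and 1 higher. Of 58 RPL10L sites 1 was lower, and of the 169 sites of all other genes 11 were lower and 7 higher.

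The 5 distal members with the smallest p were all lower and far from an RP start. One on chromosome 14 (49163598 to 49165240) lay between genes, 422000 bases from the annotated RPS29 start. It fell from 19, 22 and 17.9 CPM in Control to 6.20, 8.18 and 6.33 with shARID1A/B.2.3 and 3.49, 3.41 and 4.17 with shARID1A/B.4.2. The groups did not overlap, and the log2 change was -1.95 (edgeR adjusted p = 1.05e-31). In the single-shRNA libraries it held 10.6 to 14.3 CPM with ARID1A silencing and 8.37 to 9.30 with ARID1B silencing, all between Control and the combinations. Its neighbour (49161053 to 49161846) fell from 6.65 to 9.12 CPM in Control to 1.25 to 2.55 in the combination libraries (log2 -2.18, adjusted p = 9.61e-27), with 4.57 to 6.24 CPM in the ARID1A and 1.93 to 3.27 in the ARID1B libraries. At both sites ARID1A silencing left more accessibility than ARID1B silencing, with differences of 0.48 and 1.13 on the log2 scale, and of all distal members 2 were higher and 13 lower (0.549% and 3.57%) in that comparison, where 0.937% and 3.76% of all distal sites were. Another RPS29-named site (49483185 to 49484030, 102810 bases from the annotated start) held 3.27 to 4.01 CPM in Control and 0.747 to 1.21 in the combination libraries (log2 -1.87, adjusted p = 1.62e-17). The annotated start lies at RN7SL1, and the RefSeq start of RPS29, at 49598710, is farther from these sites. One in an intron of PIN4 named for RPS4X (chromosome X, 72257925 to 72258665) went from 2.41 to 3.42 CPM down to 0.603 to 0.967 (log2 -1.86, adjusted p = 1.47e-14), and one in an intron of UBE2E1 named for RPL15 (chromosome 3, 23877127 to 23877986) from 2.67 to 3.21 CPM down to 0.534 to 1.2 (log2 -1.79, adjusted p = 1.70e-14). The promoter sites of RPS4X and RPL15 had log2 changes of 0.16 and 0.20, and the site that holds the RefSeq start of RPS29 had 0.09.

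**Figure D5:**
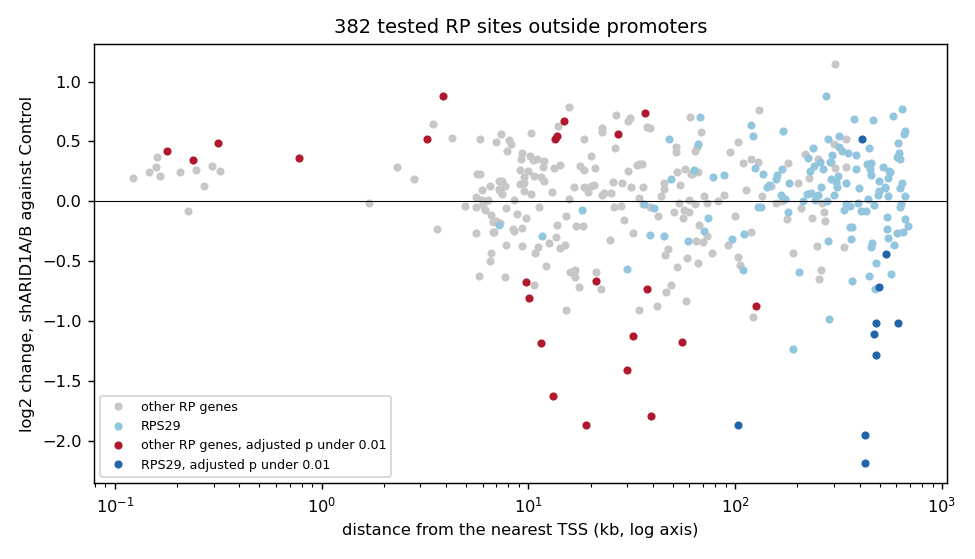
Log2 change after combined silencing (vertical axis) against distance from the nearest TSS in kb (log axis) for the 382 tested RP-named sites outside promoters, with RPS29 sites in blue and sites at an adjusted p under 0.01 in red or dark blue. The 4 called flanking sites lie above 0, and all 21 called falls, down to -2.18, belong to distal sites.

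Of the 8 distal members that were higher, RPL38 had 2 (log2 0.88 and 0.57, at -3851 and -27059 bases from the start), and RPS3, RPL31, RPS24, RPS14, RPL36 and RPS29 had 1 each. The RPL36 site lay in an intron of HSD11B1L, at -3227 bases from the start. RPL38 and RPS14 also each had a distal site that was lower, so distal sites that share an RP name did not move together. Between the pairs, 10 distal members were higher and 3 lower with shARID1A/B.4.2 than with shARID1A/B.2.3, where 3.13% and 1.47% of all distal sites were.

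Other genes of the translation apparatus, from lists set down for this comparison, were read in the same fit. Of 22 promoter sites of translation factors and other TOP-mRNA genes, 11 were higher and 1 lower after combined silencing (median 0.26). This list also holds genes with RP names outside the naming rule. Among its sites were RPL22L1 (log2 0.21), RPL26L1 (0.23) and RPL7L1 (0.30), none of them called. EIF4B rose most (log2 0.57), and other large rises were at EIF3L (0.52), EEF2 (0.51), the translocation factor, and FAU (0.51), which encodes RPS30. The lower one was a weak second site of EEF1D on chromosome 8, from 2.54 ± 0.29 CPM in Control to 1.15 ± 0.21 and 0.97 ± 0.21 (log2 -1.28, SE 0.18, adjusted p = 1.25e-08). Of 23 promoters of ribosome biogenesis genes 12 were higher and all had values above 0 (median 0.29), led by GNL3 (0.47), NOP56 (0.47) and PES1 (0.46), and of 38 promoters of mitochondrial ribosomal proteins 16 were higher and all had values above 0 (median 0.28), led by MRPL28 (0.57). These shares, 50%, 52.2% and 42.1%, stand beside 57.7% for RP promoters, 33.4% for all promoters and 47.9% for promoters in the members' range of Control accessibility. With shARID1A/B.4.2 the 3 lists had 11, 16 and 24 higher sites, where 40.4% of all promoters were higher, and with shARID1A/B.2.3 they had 4, 6 and 6 (18.2%, 26.1% and 15.8%), where 15.6% were.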

How the data were processed

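ATAC-seq libraries of SK-N-BE(2) cells were analysed from the tables that the authors deposited for each silenced group against Control. The authors aligned reads to GRCh38, per the labels, and deposited raw read counts per library over 1 consensus set of sites. Which aligner and peak caller were used, and whether reads were shifted to the Tn5 cut, is not given in the sources used here. Other deposited columns held normalised counts and the authors' own log2 ratios and adjusted p-values from DESeq2, and were not used. HOMER annotation per the file headers gave the nearest gene, its distance and the promoter class, and its 1-based positions are the ones printed. Positions of sites are on GRCh38, and sequences are from RefSeq (GRCh38.p14).

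Counts were tested with edgeR 4.0.16 (quasi-likelihood, TMM scaling, filterByExpr with a minimum count of 10) in R 4.3.3, with all 7 groups in 1 model and Benjamini-Hochberg adjustment over 357029 tested sites. Sites were called at an adjusted p under 0.01. CPM is the count per 1000000 reads of the TMM-scaled total, and the common biological coefficient of variation was 0.0817. Under TMM a change shared by most sites would not be seen. DESeq2 1.42.0, other scalings, filters, thresholds, GC-content and abundance offsets, a replicate block and leaving out each of the 21 libraries were alternatives. On simulated counts of 348800 sites for the averaged shARID1A/B comparison, 100% of rises and 96% of falls of 1 log2 unit and 24% and 28% of those of 0.5 were recovered. The changed sites were drawn without regard to site class, and none had a low mean level. Recovery at weak sites and at promoters was not tested separately. Replicates of a group differed by more than counting noise (chi-square per degree of freedom 1.08 to 2.47) and were counted separately.

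The members and gene lists were chosen with earlier results of these data known, and the comparisons between shARID1A/B pairs and between ARID1A and ARID1B were added later. By rule, the 6 promoters with the largest and the 6 with the smallest change, the 3 highest and 3 lowest in Control, genes given by role and the 5 distal sites with the smallest p were named. RPL24, RPL37, RPL23A, RPL31, RPS24 and the genes of the other lists were named after their values were seen. Some sites and genes that these rules select are counted but not reported by name here.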

Additional observations from a re-analysis of the deposited data

Results flagged for a closer look

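Effects of the 2 shARID1A/B pairs differed in a direct edgeR test (shARID1A/B.4.2 minus shARID1A/B.2.3, log2, adjusted p under 0.01) at 7 RP promoters, among them RPL23A (0.67), RPS16 (0.51), RPL21 (0.40), RPS27 (0.36) and RPS13 (0.35). These are 13.5% of the members, where 13.7% of all promoters were higher. At the RPS29-named distal sites from 49161053 and 49163598 on chromosome 14 the same difference was -0.75 and -0.92, so that the second pair lost more accessibility there. Of all 364 distal members, 10 were higher and 3 lower in this comparison (2.75% and 0.824%), where 3.13% and 1.47% of all distal sites were.

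Effects of ARID1A and ARID1B silencing differed at the promoter of RPL24 (ARID1A minus ARID1B 0.21, log2) and at the same RPS29-named distal sites (1.13 and 0.48). Of the distal members, 2 were higher and 13 lower with ARID1A silencing (0.549% and 3.57%), where 0.937% and 3.76% of all distal sites were. What sets these sites apart was not tested.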

How the results depend on the processing

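All alternatives kept the direction of the shift at RP promoters after combined silencing, and their number of higher members ran from 6 to 40. The share of all promoters called higher moved too, from 8.09% with scaling on promoter sites to 40.7% with total counts as the scale. Scaling on promoter sites gave 7 higher and 1 lower (3 and 48 outside promoters), with a median of 0.075 for members and -0.0037 for all promoters. A log2 change of at least 0.5 gave 6. Median changes of all promoters were 0.12 with GC-content offsets. Outside promoters, abundance-trended offsets gave 21 higher and 21 lower, and an adjusted p under 0.05 gave 25 higher and 37 lower.

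Without 1 library each, promoter counts after combined silencing were 19 to 39 higher and 0 to 0 lower, outside promoters 6 to 23 higher and 17 to 22 lower, with medians of 0.28 to 0.37 for members and 0.21 to 0.28 for all promoters. Higher promoters numbered 3 to 16 with shARID1A/B.2.3 (lower 0 to 1), 27 to 39 with shARID1A/B.4.2, 1 to 21 with ARID1A, 0 to 15 with ARID1B, 1 to 5 against single silencing, 1 to 13 with shARID1A.2, 3 to 13 with shARID1A.4, 0 to 3 with shARID1B.2 and 4 to 21 with shARID1B.3, with 0 to 0 lower in each of these.

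With promoter scaling the higher members numbered 2 with shARID1A/B.2.3 (2 lower), 7 with shARID1A/B.4.2, 1 with ARID1A, 3 with ARID1B, 0 against single silencing, 3 with shARID1A.2 (2 lower), 0 with shARID1A.4 and 2 with shARID1B.3. With abundance-trended offsets they numbered 15 with shARID1A/B.2.3 (2 lower), 23 with shARID1A/B.4.2, 8 with ARID1A, 11 with shARID1A.2, 4 with shARID1A.4 (1 lower) and 4 with shARID1B.2. Total counts as the scale gave 18 with shARID1A/B.2.3, 15 with ARID1B, 9 against single silencing, 14 with shARID1A.2 and 4 with shARID1B.2. GC-content offsets gave 16 with ARID1B, 8 with shARID1A.2 and 11 with shARID1B.2. DESeq2 gave 4 with shARID1A/B.2.3, 9 with ARID1A and 5 against single silencing. Fitting only the compared groups gave 5 with shARID1A/B.2.3, 14 with ARID1B and 15 with shARID1A.4, and no filter 15 with ARID1B, 14 with shARID1A.4 and 4 with shARID1B.2. At an adjusted p under 0.05 there were 14 with shARID1A/B.2.3, 22 with ARID1A, 20 with ARID1B, 6 against single silencing, 12 with shARID1A.2, 22 with shARID1A.4 and 8 with shARID1B.2. A log2 change of at least 0.5 left 1 higher and 0 lower with shARID1A/B.2.3, 19 with shARID1A/B.4.2, 0 with ARID1A, 3 with ARID1B, 0 against single silencing, 0 with shARID1A.2, 0 with shARID1A.4 and 4 with shARID1B.3. Sites within 1000 bases of the TSS, or 1 site per gene, held 0 lower with shARID1A/B.2.3.

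The replicate block gave 34 higher after combined silencing, where 37.5% of all promoters were. It gave 15 with ARID1B, 5 against single silencing, 14 with shARID1A.4 and 4 with shARID1B.2. Replicate numbers were not treated as pairs, since the labels tie them to nothing shared and deviations of same-numbered libraries had a median correlation of 0.0047 (-0.16 to 0.30, over 0.1 in 4 of 63 pairs). The highest were among replicate 2 libraries, Control with shARID1A/B.2.3 (0.30), shARID1A.2 with shARID1A/B.2.3 (0.17) and Control with shARID1A.2 (0.16). The lowest, shARID1B.2 with shARID1A/B.2.3 (-0.16), was also between replicate 2 libraries. A factor shared by some of them was not tested.

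Of the alternatives at the 30 named sites, 514 kept direction and side of the threshold, 21 lost and 14 gained the call, and 21 changed sign. Sign changed with promoter scaling at RPL6 (-0.22), RPL22 (-0.11), RPL35A (-0.10), RPS4X (-0.073), RPS26 (-0.071), RPL32 (-0.068), RPS12 (-0.066), RPL39L (-0.042), RPS3A (-0.040), RPS27A (-0.037), RPL5 (-0.029) and RPS27L (-0.0015). It changed with abundance-trended offsets at RPS12 (-0.13), RPL39L (-0.064), RPS3A (-0.032) and RPS27A (-0.00421), and with GC-content offsets at RPL6 (-0.011). Leaving out 1 library each gave -0.068 to 0.16 for RPL6 and -0.21 to 0.011 for RPL10L. The causes were not tested, and none of these sites was called. The self-test recovered 24% of simulated rises of 0.5, with few changed sites and none of low mean level. How far depth limits calls at RP promoters was not tested.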
